A study of Mus musculus with 56 samples.

Results

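L1Md_T is a subfamily of young LINE-1 retrotransposons of the mouse, and 475 H2A.Z peaks centred in its copies stood in the authors' list of peaks with lower H2A.Z after doxycycline. They were picked as the rows of that list annotated as intron or intergenic whose detailed annotation names an L1Md_T element, and they are 475 of the 9077 lower peaks and of the 61420 peaks of the whole H2A.Z set. Over that set 14.8% of peaks were in the lower list and 0.518% in the higher list. These peaks were chosen by the authors' call of lower H2A.Z and by the element named, so their being lower is a description and carries no test, and nothing is read from their number against that background.

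The peaks come from CUT&Tag, which uses an antibody-bound transposase to tag the DNA around a chromatin protein, in mouse embryonic stem cells of the line RHKI(E14Tg2a). The doxycycline group was 4 H2A.Z libraries from HA-Rnaseh1 knock-in cells given 500 ng/ml doxycycline for 48 hours, and the control group was 4 H2A.Z libraries from cells of the same line and knock-in without that treatment. Both groups grew in 2i/LIF medium with 2% FBS, in which the GSK3 inhibitor CHIR-99021 was at 3 µM and the MEK inhibitor PD0325901 at 1 µM. The labels do not say whether the line is 1 clone, and no library here sets apart an effect of doxycycline itself from that of RNase H1. Lower and higher are read from the names of the lists. The lists hold positions without a fold change, a p-value or a value per library, so depth and the spread between libraries are unknown here, and the smallest change that was called cannot be given. The labelled cell type could not be checked against its markers, because the files hold no expression values.

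LINE-1 elements are retrotransposons that copy themselves through an RNA intermediate. A full-length mouse copy starts with a promoter of tandem monomers in its 5′ end, followed by the coding sequence for an RNA-binding protein and for an endonuclease with reverse transcriptase, and most copies in the genome are cut short at the 5′ end. The L1Md subfamilies T, A and Gf hold the copies still able to move, and embryonic stem cells transcribe them while DNA methylation and H3K9 methylation restrain them. H2A.Z is a variant of histone H2A found mainly at promoters and enhancers, and RNase H1 is the nuclease that removes RNA paired with DNA, as in R-loops.

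One L1Md_T peak overlapped a promoter window of the RefSeq table for GRCm38.p6, and its sequence is shown because it is the reference DNA under these peaks that the table holds. The peak of 1193 base pairs lay on chromosome 13 from 50527829 to 50529021, with its centre 781 base pairs from the start of the lncRNA gene Gm31835. The authors' annotation gives Mir683-2, with a TSS 16309 base pairs away, as the nearest gene. The window runs from 250 bases before to 50 bases after the start of Gm31835, at chr13:50527595-50527894 on the minus strand, and capitals mark the 66 bases inside the peak:
Gm31835: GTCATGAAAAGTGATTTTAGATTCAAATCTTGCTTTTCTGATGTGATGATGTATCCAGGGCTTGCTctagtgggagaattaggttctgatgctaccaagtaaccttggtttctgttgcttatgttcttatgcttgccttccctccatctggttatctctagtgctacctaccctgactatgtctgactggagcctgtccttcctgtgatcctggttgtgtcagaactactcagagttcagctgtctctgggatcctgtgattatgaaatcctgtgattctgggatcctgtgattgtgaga
The 66 bases were 36.4% G or C, against 44.0% over the window of 300 bases. CG, which reads the same on both strands, occurred 0 times in the window, as in 5.43% of the 32851 windows of the table. Where the L1Md_T copy begins and ends is not given by the annotation, so these bases need not all belong to it.

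The L1Md_T peaks made up 9.15% of the 5193 lower peaks in introns and intergenic DNA (95% exact Clopper-Pearson interval 8.38 to 9.96%). Their share was 14.6% of the 2670 intergenic ones (13.3 to 16.0%) and 3.37% of the 2523 intronic ones (2.70 to 4.15%). Of 965 lower peaks in any L1Md element, 475 were in L1Md_T (49.2%, 46.0 to 52.4%), 394 in L1Md_A, 39 in L1Md_F2, 33 in L1Md_Gf, 23 in L1Md_F and 1 in L1Md_F3. The list of higher peaks held 0 L1Md_T peaks among its 308 in introns and intergenic DNA, which allows a share of up to 0.974% by a limit of 3 counts and of 1.19% by the upper bound of the exact two-sided interval. These intervals and limits cover the counting of peaks only. How many L1Md_T copies held a peak that did not change is not known, because the authors' annotation covers the changed peaks only.

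L1Md_T peaks were narrow. Their widths ran from 501 to 1781 base pairs with a median of 757 (95% order-statistic interval 711 to 770), against 754 (683 to 770) for lower L1Md_A peaks and 1012 (980 to 1026) for the 4228 lower intron and intergenic peaks in no L1Md element, called other lower peaks from here on. None of the 475 was wider than 2000 base pairs, while 20.2% of the whole peak set was. Of the L1Md_T peaks, 133 (28.0%, 24.0 to 32.3%) had 501 base pairs, the minimum in the set, against 17.5% of other lower peaks. The share wider than 1 kb was 20.6% in L1Md_T and 51.0% in other lower peaks (odds ratio 0.249, 0.198 to 0.314; two-sided Fisher's exact test, adjusted p = 5.72e-38).

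The tests in this text compare peaks, which are not replicates of a treatment: 7 shares against each of 2 classes, with Benjamini-Hochberg adjustment over the 14. A p-value here says how 2 sets of peaks differ in place or width, and says nothing of how H2A.Z varied between libraries. The higher share at the minimum width (odds ratio 1.84, 1.48 to 2.28, exact adjusted p = 1.94e-07) did not pass against the 626 other lower peaks in a repeat, where the shares were 28.0% in L1Md_T and 24.1% in other repeats (odds ratio 1.22, exact adjusted p = 0.328; range over 4 alternatives 1.85e-05 to 0.328).

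**Figure D1:**
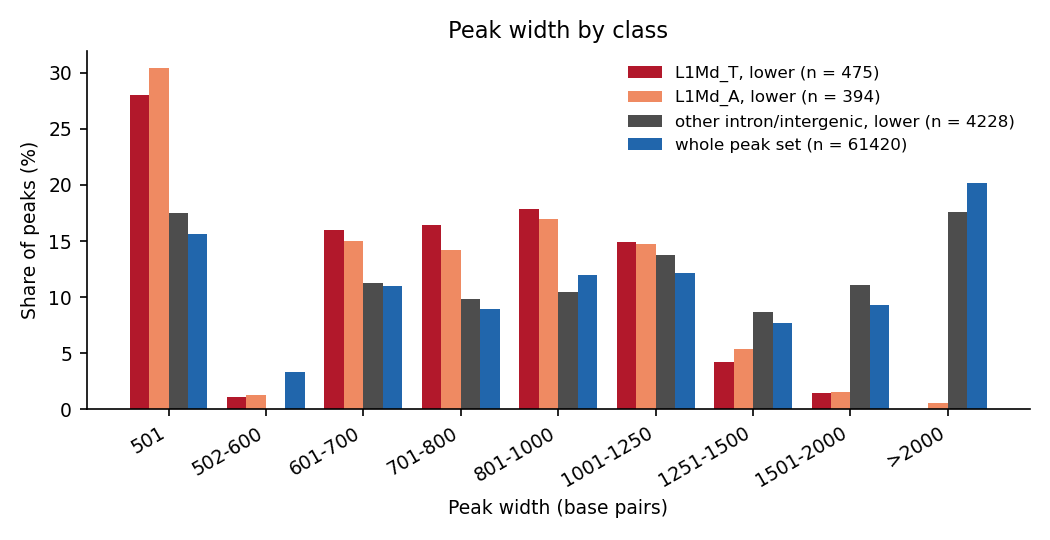
Share of peaks (vertical axis, percent) in classes of peak width (horizontal axis, base pairs) for lower L1Md_T peaks, lower L1Md_A peaks, other lower intron and intergenic peaks and the whole peak set. The bars of L1Md_T and L1Md_A run close together, with 28.0% and 30.5% at the minimum of 501, and no L1Md_T peak is wider than 2000 base pairs.

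The widest L1Md_T peak, of 1781 base pairs, lay on chromosome 2 from 172006308 to 172008088, between genes and 36.3 kb from the TSS of Cbln4, which encodes a secreted organiser of synapses. The next, of 1694 and 1589 base pairs, were nearest to Smim31, which encodes a small membrane protein, and to Ccdc70. Fshr, the receptor of follicle-stimulating hormone, held a peak of 1550 base pairs in its first intron, 46.6 kb from the TSS, and Olfr165 had an intergenic one of the same width at 59.2 kb. Sostdc1, a secreted antagonist of BMP and Wnt signals, had one of 1481 base pairs at 28.6 kb. Rab3c, a GTPase of synaptic vesicles, had one of 1457 at −28.7 kb, where a minus sign means upstream of the TSS. The authors' annotation names Timm8a1 for one of 1468 on chromosome 10, but RefSeq places that gene on X. The same mismatch touched 3 of the 475 peaks, the others being named for Snord14d and for an unnamed gene model. The other 2 of the 10 widest were nearest to unnamed gene models.

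L1Md_T peaks lay far from the starts of genes. Their distance to the nearest TSS in the authors' annotation ran from 2.76 to 1770 kb, with a median of 124 kb (105 to 147 kb), against 131 kb (107 to 155 kb) for L1Md_A and 13.2 kb (12.3 to 14.0 kb) for other lower peaks. Within 10 kb of a TSS lay 17 L1Md_T peaks (3.58%), against 44.0% of other lower peaks (odds ratio 0.0473, 0.0290 to 0.0770; two-sided Fisher's exact test, adjusted p = 3.18e-83). More than 100 kb away lay 265 (55.8%, 51.2 to 60.3%), against 7.40% of other lower peaks (odds ratio 15.8, 12.7 to 19.6, exact adjusted p = 8.96e-136). Against other lower peaks in a repeat these ratios were 0.0852 and 8.61, with 30.4% of those peaks within 10 kb and 12.8% beyond 100 kb. Intergenic peaks alone gave ratios of 0.0995 and 10.02. More than 1 Mb away lay 18 L1Md_T peaks (3.79%), 13 L1Md_A peaks and 1 other lower peak.

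**Figure D2:**
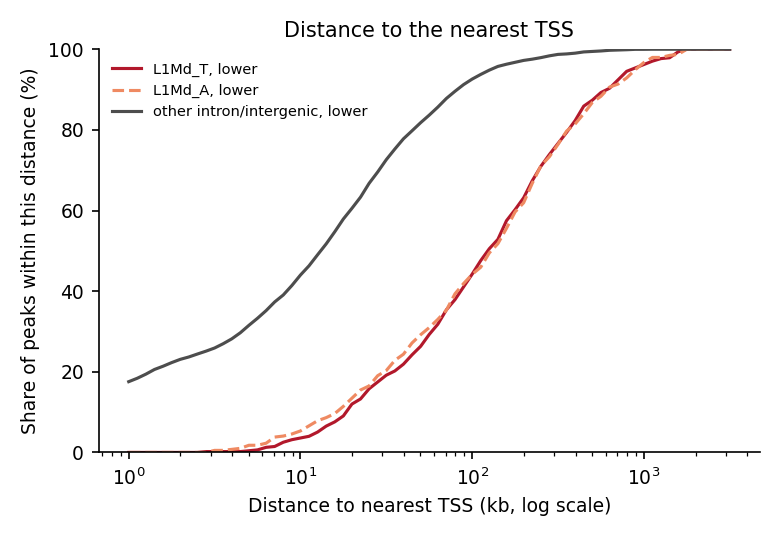
Cumulative share of peaks (vertical axis, percent) within a given distance of the nearest TSS in the authors' annotation (horizontal axis, kb, log scale) for the 3 classes of lower peaks. The lines of L1Md_T and L1Md_A lie together, with medians of 124 and 131 kb, to the right of other lower peaks with a median of 13.2 kb.

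By the TSSs of the authors' annotation, the closest L1Md_T peak lay between genes on chromosome 12, at −2764 base pairs from the lncRNA gene Gm33340. Tekt5, a tektin of the sperm flagellum, followed at −4797 base pairs (chromosome 16, 10399787 to 10400718), and Dcp2, the catalytic subunit of mRNA decapping, at −5513. Hykk, which encodes hydroxylysine kinase, had a peak of 765 base pairs in intron 3 of 4 (chromosome 9, 54922636 to 54923400), 5728 base pairs from the TSS, and Ankib1, which encodes a ubiquitin ligase, one in an intron at 5969. The bitter taste receptor gene Tas2r123 had one at −6114 and the pheromone receptor gene Vmn1r23 one at 7110 base pairs. Unnamed gene models were nearest to the remaining 3 of the 10 closest. At the other end, the most distant peak lay 1770 kb upstream of Nudt12, which encodes an NADH diphosphatase of peroxisomes, and another lay 1561 kb downstream of Olfm4, a secreted glycoprotein gene.

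Against the RefSeq TSSs of GRCm38.p6, which include predicted genes, 459 L1Md_T peaks had a median distance of 97.7 kb (85.4 to 114 kb). The promoter table that gave these TSSs holds none on chromosome 18. The 16 L1Md_T, 14 L1Md_A and 89 other lower peaks of that chromosome are therefore left out here, among them the peak near Dcp2. The median was 85.8 kb (73.1 to 112 kb) for 380 L1Md_A peaks and 12.1 kb for 4139 other lower peaks. On that measure 15 L1Md_T peaks lay within 10 kb and 1 within 1 kb, at Gm31835. The median number of protein-coding genes within 500 kb was 3 (2 to 3) for L1Md_T, 3 (3 to 4) for L1Md_A and 16 (16 to 16) for other lower peaks. Of the L1Md_T peaks, 79 (16.6%) had 0 such genes in that window, against 20 (0.473%) of other lower peaks.

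Most L1Md_T peaks were intergenic, 390 of 475, and 85 were in introns (17.9%, 14.6 to 21.6%), against 55.5% of other lower peaks (odds ratio 0.175, 0.137 to 0.223; two-sided Fisher's exact test, adjusted p = 4.03e-57). Among other lower peaks in a repeat the intron share was 34.8%, and the odds ratio against these was 0.408. The intergenic ones lay upstream of their nearest TSS in 220 cases (56.4%, 51.3 to 61.4%). This share was 54.4% in intergenic L1Md_A peaks and 64.2% in other intergenic lower peaks, differences that were not tested. By RefSeq gene bodies, 24 of the 390 intergenic peaks lay inside a gene, 16 of them in noncoding genes only. Median widths were 759 base pairs in introns and 755.5 between genes, and median TSS distances were 69.9 and 145 kb.

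The intronic L1Md_T peaks sat in long genes. The 85 peaks fell in 83 genes, of which 69 were longer than 100 kb, with a median gene length of 317 kb (221 to 385 kb), against 32.8 kb (31.1 to 35.3 kb) for the 1878 genes that hold other intronic lower peaks. Gene lengths for intronic L1Md_A peaks are not given here, so long genes are not read as particular to L1Md_T. The length of intron available in each gene was not adjusted for. In intron 1 lay 19 of the 85, and in the last intron 5. The longest 5 of these genes, chosen after their values were seen, were Lsamp (2197 kb), a neuronal adhesion gene, Macrod2 (1998 kb), an ADP-ribose hydrolase gene, Pcdh15 (1554 kb), a protocadherin of the inner ear hair cell, Naaladl2 (1346 kb) and Agbl4 (1267 kb), which encodes a carboxypeptidase that acts on tubulin. Only Gabra3, a GABA-A receptor subunit gene on chromosome X, and the gene model Gm16630 held 2 peaks. The 2 in Gabra3 were both in its first intron, at 72572734 to 72573234 and at 72578064 to 72578692, and their centres were 5.39 kb apart, the closest pair of L1Md_T peaks. For 48 of the 85 the gene with the nearest TSS was the gene that holds the peak.

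L1Md_T peaks stood alone. The nearest other lower peak was at a median of 286 kb (234 to 329 kb), against 267 kb (231 to 321 kb) for L1Md_A and 27.3 kb (25.8 to 28.6 kb) for other lower peaks. Only 11 of the 475 had another lower peak within 10 kb (2.32%, 1.16 to 4.11%), against 25.1% of other lower peaks (odds ratio 0.0707, 0.0387 to 0.129; two-sided Fisher's exact test, adjusted p = 4.31e-40). Against other lower peaks in a repeat, of which 17.3% had such a neighbour, the ratio was 0.114. Peaks of any kind were also sparse around them, as around L1Md_A peaks. Another peak of the set lay within 10 kb of 75 (15.8%), beside 14.2% of L1Md_A and 60.8% of other lower peaks. None lay within 100 kb of 82 (17.3%), beside 16.0% of L1Md_A and 1.21% of other lower peaks. The share with a lower neighbour counts neighbours of a peak's own class, which holds 475 L1Md_T peaks or 4228 other lower peaks. Neighbouring lower peaks also count each other, so the peaks tested are not independent. The ratios of 0.0707 and 0.114 may depend on class size and on how densely peaks of any kind lie, and are read as description only.

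Most peaks close to L1Md_T peaks were in neither list. Of 83 peaks of the set within 10 kb of an L1Md_T peak, 11 were lower (13.3%, 6.81 to 22.5%), 0 higher and 72 in neither list, beside 14.8% lower over the whole set. Around L1Md_A peaks 11 of 61 neighbours were lower (18.0%, 9.36 to 29.98%), and around other lower peaks 1151 of 3470 (33.2%, 31.6 to 34.8%). These counts include neighbours of a peak's own class, which are lower by choice. Without them 9 of 81 neighbours of L1Md_T peaks were lower (11.1%), and 7 of 57 of L1Md_A peaks (12.3%). For other lower peaks the count without them was 482 of 2801 (17.2%). The class of other lower peaks is far larger, so its 33.2% depends on class size and is not read against 13.3%. Leaving out a class of that size also lowers its share, so the counts without own class are not compared either. Of the 9 lower neighbours outside L1Md_T, 4 were in L1Md_A elements, 1 in another L1Md element, 2 in intergenic DNA outside L1Md, 1 in an exon and 1 in a promoter. These shares were not tested against each other, and 83 neighbours set how precisely the first is known.

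**Figure D3:**
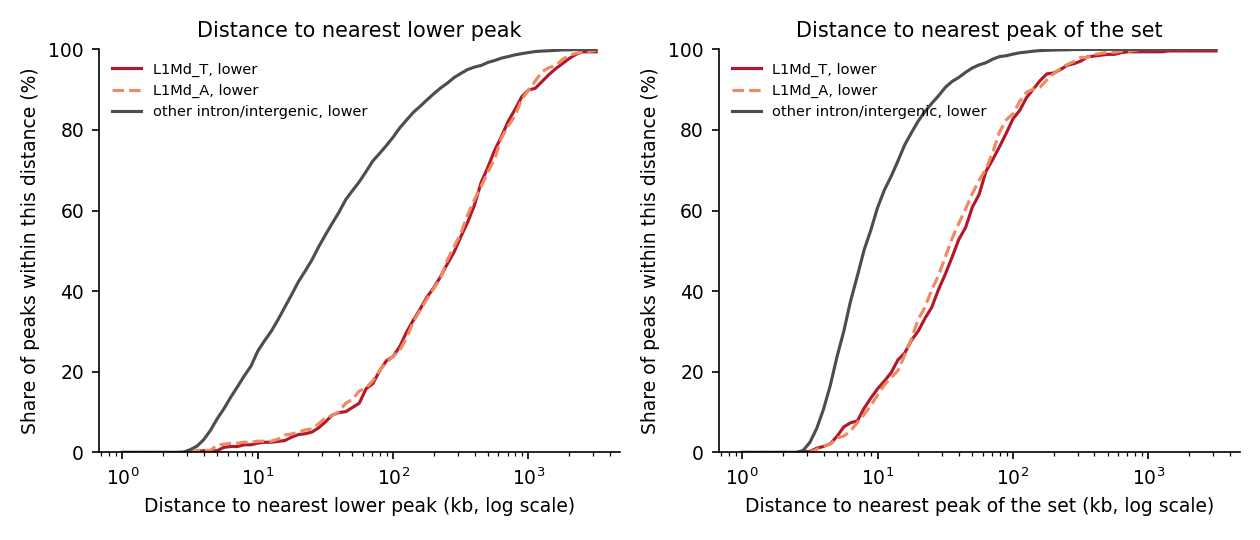
Cumulative share of peaks (vertical axes, percent) whose nearest lower peak (left) or nearest peak of the whole set (right) lies within a given distance, centre to centre (horizontal axes, kb, log scale). L1Md_T and L1Md_A lines overlap, with a median distance to the nearest lower peak of 286 and 267 kb against 27.3 kb in other lower peaks.

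Among themselves, the L1Md_T peaks were scattered. Consecutive peaks on a chromosome were a median of 2.95 Mb apart (2.21 to 3.33 Mb), with quartiles of 0.919 and 6.66 Mb. The longest gap, of 76.4 Mb, was on the Y chromosome, which had 8 peaks of any kind in the set. Of the 475, 42 had another L1Md_T peak within 100 kb and 206 within 1 Mb, while 68 had none within 5 Mb. An L1Md_A peak lay within 100 kb of 25 and within 1 Mb of 192. Of 283 windows of up to 10 Mb with any H2A.Z peak, 202 held an L1Md_T peak, 18 held 5 or more, and the median was 1. The 283 include unplaced scaffolds, each entered as 1 window, and none of these held an L1Md_T peak. The fullest windows were on chromosome 3 from 40 to 50 Mb with 9 and on chromosome 2 from 10 to 20 Mb with 8. Windows on chromosome 10 (50 to 60 Mb), chromosome 6 (60 to 70 Mb) and X (60 to 70 and 110 to 120 Mb) held 7 each.

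All 21 chromosomes held L1Md_T peaks, and X held more than any autosome, 55 (11.6%, 8.84 to 14.8%). Of other lower peaks 2.37% were on X (odds ratio 5.41, 3.83 to 7.63; two-sided Fisher's exact test, adjusted p = 7.30e-18). L1Md_T peaks made up 18.2% of all 303 lower peaks on X (14.0 to 23.0%) and 4.76% of the 8765 on autosomes (4.32 to 5.22%). Together with L1Md_A they were 98 of those 303 (32.3%), against 8.76% on autosomes. Chromosome 3 came next with 48, which was 21.0% of its lower intron and intergenic peaks (15.9 to 26.8%), followed by chromosomes 2 and 6 with 34 each. Chromosome 11, with 422 other lower peaks the richest in these, had 12 L1Md_T peaks (2.70% of its lower intron and intergenic peaks, 1.40 to 4.66%), and chromosome 19 had 7 (4.09%). The Y chromosome had 8 peaks in the set, of which 5 were lower and 3 were in L1Md_T. How many L1Md_T copies each chromosome carries was not measured here, so a share per copy cannot be given.

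**Figure D4:**
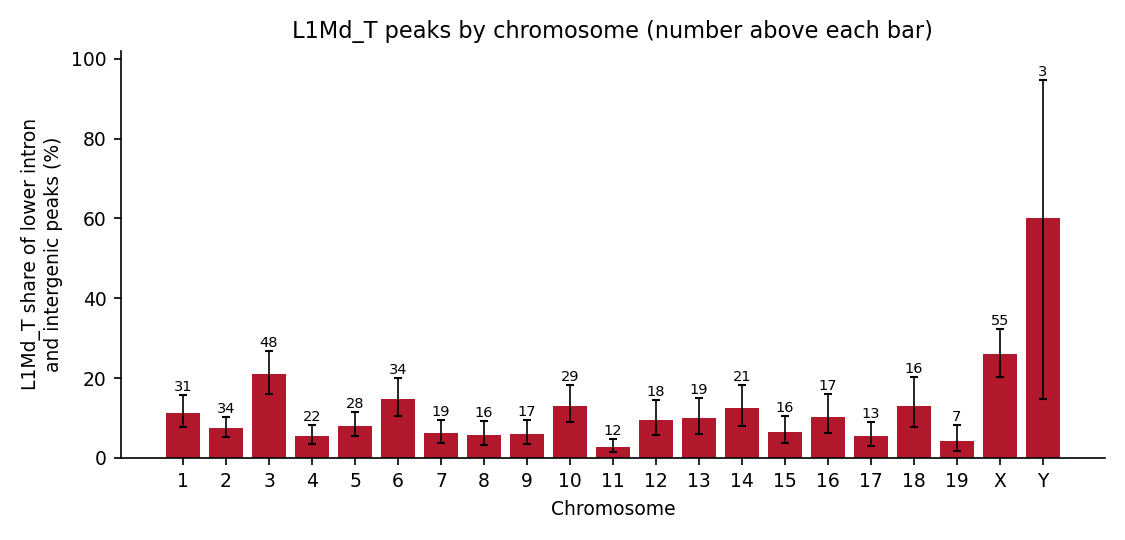
L1Md_T share of lower intron and intergenic peaks (vertical axis, percent, from 0) for each chromosome (horizontal axis), with 95% exact Clopper-Pearson intervals as error bars and the number of L1Md_T peaks above each bar. X reaches 25.9% and chromosome 3 reaches 21.0%, chromosome 11 has 2.70%, and the bar of Y rests on 5 lower peaks.

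None of the 7 shares passed the test between lower peaks in L1Md_T and in L1Md_A. L1Md_A is a sister subfamily with a promoter of a different monomer. The intron share was 17.9% in L1Md_T and 18.8% in L1Md_A, a difference of −0.89 percentage points (−6.06 to 4.29; two-sided Fisher's exact test, adjusted p = 0.893). The share more than 100 kb from a TSS was 55.8% in both (difference −0.0481 points, −6.68 to 6.58, exact adjusted p = 1), and the share on X was 11.6% in L1Md_T and 10.9% in L1Md_A (0.665 points, −3.55 to 4.88, exact adjusted p = 0.893). The share within 10 kb of a TSS was 3.58% in L1Md_T and 5.33% in L1Md_A (−1.75 points, −4.53 to 1.03, exact adjusted p = 0.427). Differences in the 2 width shares and the share with a lower neighbour had intervals that include 0 as well, the widest from −8.54 to 3.62 points for the minimum width. These intervals leave room for differences of several points.

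**Figure D5:**
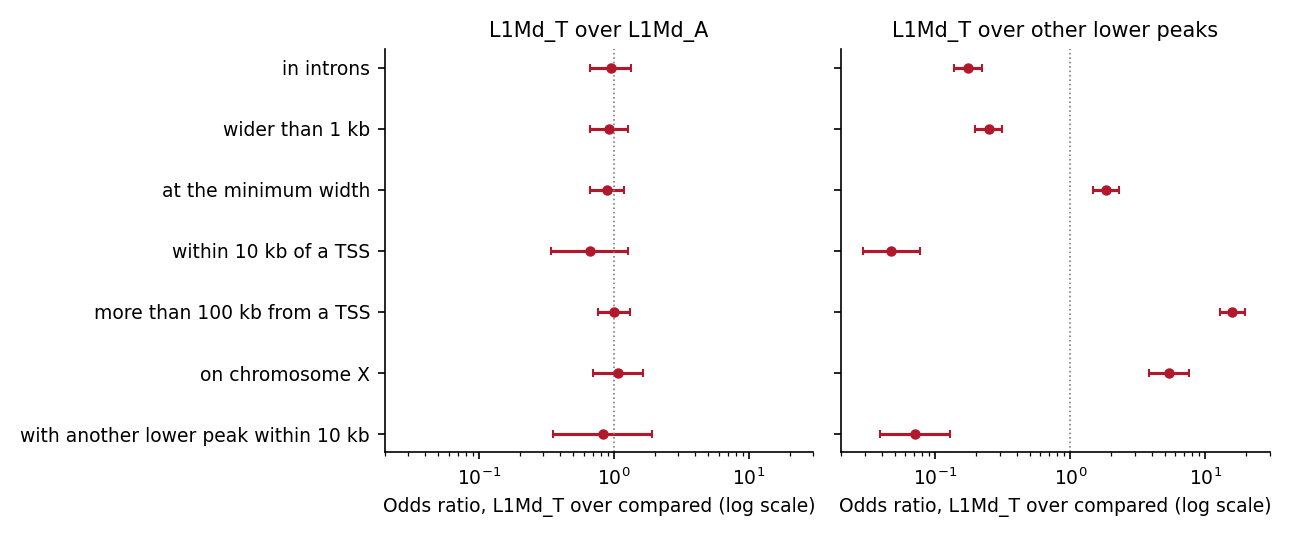
Odds ratios (horizontal axes, log scale) of 7 shares in lower L1Md_T peaks over lower L1Md_A peaks (left) and over other lower intron and intergenic peaks (right), with 95% Woolf intervals. Every interval on the left includes 1, and on the right the ratios run from 0.0473 for a TSS within 10 kb to 15.8 for a TSS beyond 100 kb.

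The nearest genes were many and mostly met by 1 peak. The 473 L1Md_T peaks with a matched gene had 423 different nearest genes, 384 of them with 1 peak and 39 with 2 or more. The gene was protein-coding for 343 peaks (72.2%) and a lncRNA for 93 (19.6%), and a miRNA gene was nearest to 14. For 299 of the 423 genes, L1Md_T peaks were the only lower peaks assigned to them. A lower promoter peak stood at 7 of the 423 (1.65%), beside 10 of 363 nearest genes of L1Md_A peaks (2.75%). It stood at 336 of 3233 nearest genes of other lower peaks (10.4%), whose median distance to a TSS is shorter. The share over all genes is not given here, so 1.65% is not read as low or high. The 7 were Hykk, Kcnc2, a potassium channel gene, Zmynd11, a reader of methylated histone H3.3, Usp47, a deubiquitinase gene, Fat4, a giant cadherin gene, Epha6, an ephrin receptor gene, and Mms22l, a gene of replication fork repair. At Hykk the L1Md_T peak was 5.73 kb from the TSS, and at the other 6 it was 52.2 to 844 kb away.

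Nbea, which encodes neurobeachin, a protein of membrane traffic, had 4 L1Md_T peaks on chromosome 3, of which 1 lay in its first intron at 47.2 kb and the others at −26.0, −361 and −420 kb. Cox7c, a subunit gene of cytochrome c oxidase, had 4 on chromosome 13, all upstream, from −125 to −712 kb. Slc39a10, which encodes a zinc importer, had 3 at 146, −224 and −256 kb on chromosome 1, the first of which sits in an intron of the dynein gene Dnah7c. G6pd2, a copy of the glucose-6-phosphate dehydrogenase gene, had 3 on chromosome 5, at −576, −208 and 417 kb, and Rprl1, an RNase P RNA-like gene, had 3 on chromosome 6, at −476, −269 and 303 kb. At such distances the nearest gene is a label of place and no more.

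In 62 genes both L1Md_T and L1Md_A peaks were assigned. Cox7c had 4 L1Md_T peaks and 1 L1Md_A peak, Rprl1 had 3 L1Md_T and 1 L1Md_A, and Pcdh15 had 2 of each. At Rprl2 there were 1 L1Md_T peak and 4 L1Md_A peaks, and at Epha6, which belongs to the receptors of axon guidance, 1 L1Md_T and 2 L1Md_A peaks. Snord14d, one of the names that RefSeq places on another chromosome, was given to 1 L1Md_T and 3 L1Md_A peaks.

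The gene lists differ in size, so each is read against the share of all protein-coding genes of the RefSeq table that were nearest to an L1Md_T peak, 315 of 21900 (1.44%). Olfactory and vomeronasal receptor genes, which stand in clusters without many other genes, were nearest to 23 L1Md_T peaks (4.84%), each a different gene, against 18 L1Md_A peaks (4.57%) and 11 other lower peaks (0.260%). Of the 1465 protein-coding genes on that list 22 were nearest to an L1Md_T peak (1.502%), close to the share of all protein-coding genes. Of the 23, all but 1 were intergenic, from Vmn1r23 at 7.11 kb and Olfr593 at −10.0 kb to Olfr266 at −100.4 kb. Synaptic adhesion and axon guidance genes were nearest to 10 L1Md_T peaks (2.11%), 10 L1Md_A peaks (2.54%) and 11 other lower peaks (0.260%). Of the 54 genes on that list 9 were nearest to an L1Md_T peak (16.7%). They were Cntnap5a with 2, and Cntn5, Epha3, Epha5, Epha6, Epha7, Lrrc4c, Lsamp and the netrin receptor gene Unc5d with 1 each, all upstream of the TSS the authors' annotation used, from −105 kb for Epha3 to −1455 kb for a peak of Cntnap5a. The Lsamp peak, at −718 kb from that TSS, lies in intron 2 of 8 of another transcript of Lsamp. Cadherins and protocadherins were nearest to 7 L1Md_T peaks (1.47%), 6 L1Md_A peaks (1.52%) and 8 other lower peaks (0.189%). Of 97 protein-coding genes on that list 6 were nearest to an L1Md_T peak (6.19%), namely Pcdh15 with 2 peaks, and Pcdh9, Pcdh18, Cdh19, Cdh26 and Pcdhb22 with 1 each. These shares describe which genes lie near and were not tested. Gene length and gene spacing, which set how often a gene is the nearest one, were not matched. The lists were chosen with earlier results of these data known, so a share above 1.44% carries no test. Counts go by the nearest TSS. Cntnap4 and Pcdh11x each held an L1Md_T peak in an intron but were not its nearest gene.

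Zfp genes were nearest to 6 L1Md_T peaks (1.26%), 1 L1Md_A peak (0.254%) and 77 other lower peaks (1.82%). Of 397 protein-coding Zfp genes 5 were nearest to an L1Md_T peak (1.26%). Zfp746 was nearest to 2 of the 6 peaks, both in an intron of Gm16630, and Zfp534 to 1 at −27.0 kb. By gene body, 2 other L1Md_T peaks lay in introns of Zfp560 and Zfp804b, which were not their nearest genes. Potassium channel genes were nearest to 2 L1Md_T peaks (Kcnc2 and Kcnd2), 3 L1Md_A peaks and 27 other lower peaks. Of 94 protein-coding genes on that list 2 were nearest to an L1Md_T peak (2.13%), and an intron of Kcnma1 held another. Glutamate and GABA receptor genes were nearest to 2 L1Md_T peaks (Grin3a and Grik2), 1 L1Md_A peak and 16 other lower peaks. Of 38 genes on that list 2 were nearest to an L1Md_T peak (5.26%), against 1.44% of all protein-coding genes. The 2 peaks inside Gabra3 were nearest to Mir767 and are not in that count. None of these shares was tested. Genes that silence L1, such as those of the HUSH complex, Setdb1 and Trim28, were nearest to 0 L1Md_T peaks (0 of 475 allows up to 0.632% by the limit of 3 counts), 0 L1Md_A peaks and 4 other lower peaks. Pluripotency genes were likewise nearest to 0 L1Md_T, 0 L1Md_A and 5 other lower peaks, and phosphodiesterase genes to 0 L1Md_T, 0 L1Md_A and 12 other lower peaks. The lists of L1 silencing, pluripotency and phosphodiesterase genes hold only 28, 16 and 26 genes. With 1.44% of all protein-coding genes nearest to an L1Md_T peak, counts of 0 in lists this short are not read as avoidance.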

How the data were processed

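H2A.Z CUT&Tag peaks of 4 doxycycline and 4 control libraries were analysed, out of 56 libraries for 10 targets; the other 48 are not analysed here. The submitters' processing notes name Bowtie2, deepTools, HOMER, Picard and Trimmomatic, and the build GRCm38. Per the file headers, the changed peaks were annotated with HOMER annotatePeaks against mm10. Not given in the sources used here are the peak caller, the test and threshold for changed peaks and any pooling of replicates. The peak score the authors deposited is 0 in every row and was not used.

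All lower and higher peaks matched a peak of the set exactly, and starts are printed counting from 1. Peak place, TSS distance and element were taken as the authors deposited them. Symbols were read through Entrez IDs from RefSeq genes of GRCm38.p6, which matched 473 of the 475 peaks. Sequence comes from the RefSeq promoter table of that build, which was used for the chromosomes it holds and lacks chromosome 18. RefSeq gene bodies without strand served for host genes and gene counts.

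Each pair of shares went into a two-sided Fisher's exact test, with Woolf intervals of the odds ratio, normal intervals of differences and Benjamini-Hochberg adjustment over 14 tests at 0.05. A Detailed Annotation of another repeat defined the other lower peaks in a repeat. The test function was tested on simulated data. Genes were named by rule: the 12 with most L1Md_T peaks, the nearest to the 10 widest, 10 closest and 5 farthest peaks, up to 10 with both L1Md_T and L1Md_A peaks, and members of 9 gene lists. Of the lists' members, examples are printed. Of the genes this rule names, 1 is not reported here. Members and lists were chosen with earlier results of these data known. Genes with a lower promoter peak and the longest host genes were chosen after their values were seen. The work used SciPy 1.17.1, pandas 2.3.3, numpy 2.4.6 and matplotlib 3.10.9 under Python 3.11.15.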

Additional observations from a re-analysis of the deposited data

How the results depend on the processing

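Of 42 alternatives to the tests against other lower peaks, 41 kept direction and call. The exception, other repeats alone, gave an odds ratio of 1.22 for the minimum width, and the cause was not tested. Odds ratios over these alternatives ranged from 8.61 to 20.5 beyond 100 kb, 0.00918 to 0.0995 within 10 kb, 0.171 to 0.408 in introns, 0.0373 to 0.483 for wide peaks, 0.0468 to 0.114 for a lower neighbour and 3.66 to 5.07 for X. Of 35 alternatives to the tests against L1Md_A, 26 kept direction and none made a call. The other 9 turned the direction of differences that were never called. The intron odds ratio was 1.40 without peaks of the minimum width and 1.01 on autosomes, that for X was 0.961 with 1 peak per 100 kb, and that for width was 1.06 over 750 base pairs. The ratio for a TSS beyond 100 kb was 1.0004 without peaks of the minimum width, 1.15 beyond 50 kb, 1.01 for intergenic peaks and 1.06 with RefSeq TSSs, and that for the minimum width was 1.12 for intergenic peaks. Other repeats, intergenic peaks and RefSeq TSSs were chosen after seeing the data. Any annotation class gave the same 475 peaks, and 342 remained without the minimum width.

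No paired analysis was possible because the files hold no value per library, and leaving out a replicate was not run for the same reason. Mappability and reads shared between copies of L1Md_T were not tested.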

Other observations

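Few peaks just above the minimum width were in the list of lower peaks. Of 2047 peaks of the set that were 502 to 600 base pairs wide, 16 were lower (0.782%, 95% exact Clopper-Pearson interval 0.447 to 1.27%) and 0 were higher. In the neighbouring classes the lower share was 14.6% at 501 base pairs, 14.6% from 601 to 700 and 15.7% from 701 to 800. L1Md_T and L1Md_A held 5 each of those 16 lower peaks, and other lower intron and intergenic peaks held 2. The L1Md_T peaks among them were 1 of 534 base pairs nearest to Ptger4 on chromosome 15, 1 of 545 nearest to Rgmb on chromosome 17, 1 of 561 nearest to Tm4sf1 on chromosome 3, 1 of 504 on the Y chromosome and 1 of 536 near an unnamed gene model. This width class and these genes were chosen after the widths were seen, and no test was made.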
